A study of Mus musculus with 16 samples.

Results

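The lysosome is the acidic compartment in which cells break down proteins, glycans, lipids and worn organelles, and its enzymes, membrane proteins and proton pump are encoded by genes scattered over the genome. Many of these genes are known targets of the MiT/TFE transcription factors TFEB, TFE3 and MITF, which bind short E-box sequences near their starts. When nutrients are ample, mTORC1 phosphorylates these factors on the lysosomal surface with the help of the folliculin complex, and the factors stay in the cytoplasm. When this hold is released they enter the nucleus, so that their activity can change with no change in their own mRNA.

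The genes described here were 35 lysosome genes and TFEB regulators taken by gene symbol from the count and TPM tables. They comprised 3 MiT/TFE factors, 3 genes of the folliculin complex, 9 lysosomal proteases, 8 glycosidases and lipid hydrolases, 6 membrane proteins, 3 lumenal cofactors, 2 subunits of the proton pump and 1 autophagy receptor. All 35 passed the filter on low counts, which kept 15155 of 55335 genes in the table. Exons of 14 of the 35 (Ctsa, Ctsb, Ctsd, Ctsl, Ctsz, Hexa, Glb1, Ppt1, Lamp1, Npc1, Cln3, Grn, Atp6v1h and Sqstm1) overlap exons of another gene in GENCODE M21. Nothing read here says whether the counting used strand, so their counts could hold reads of the other gene. For Ctsd (Gm49369), Ctsl (Gm49230) and Glb1 (Tmppe) an overlapping gene lies on the same strand, which counting by strand would not separate.

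The study asked which genes respond when RUVBL2, an AAA+ ATPase that works in a complex with RUVBL1, is removed from mouse embryonic stem cells (mESCs). In these cells RUVBL2 carries a mini auxin-inducible degron tag, and doxycycline (Dox) induces the plant F-box protein OsTIR1, which targets the tagged protein for degradation once auxin is added. Untreated cells (Mock), cells given 2 μg/ml Dox for 24 h (Dox, which is also auxin 0 h), and cells given Dox for 24 h and then 500 μM auxin for 0.5, 1, 6, 12, 24 or 48 h were sequenced as poly(A) RNA, with 2 libraries for each of the 8 conditions. All groups carry the tagged RUVBL2 and the inducible OsTIR1, the line was grown from picked colonies, and the cells were kept with LIF on irradiated mouse embryonic fibroblasts, from which the methods say they had been passaged away before harvest. No cells with Dox alone were sampled beside the later auxin times, so the duration of auxin and of Dox cannot be told apart after auxin was added. The degron acts on the protein, so the mRNA of Ruvbl2 does not check the labels.

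The 16 libraries held 11666732 to 13924958 counts, and the libraries of a pair correlated at 0.9889 to 0.9908 over log-scaled expression. The 9 pluripotency markers summed to between 10070 and 12830 TPM (a level corrected for gene length and library depth), but at 24 h 3 of them were called lower against Dox (edgeR adjusted p under 0.05 and fold over 1.5, log2 fold changes given), Zfp42 (-1.54), Nanog (-1.20) and Utf1 (-0.82). Of 18 fibroblast markers 13 stayed below 1 TPM in every library, with sums of 12.5 to 26.8 TPM. Of the 6 tested, 4 were called higher at 6 h, 1 higher and 2 lower at 24 h, and 3 higher and 2 lower at 48 h, with Pdgfrb up by 3.28 at 24 h and Tagln at -5.18 at 48 h on the log2 scale. Of 9 macrophage markers all stayed below 1 TPM, with Adgre1, Lyz2 and Ptprc listed at 0. Primitive endoderm markers summed to 50.4 and 51.2 TPM in the Dox libraries and to 101 and 106 TPM at 48 h, mostly from Lama1 and Col4a1, with 5 of 8 called higher at 24 h and 6 at 48 h. Trophectoderm markers summed to 81.2 and 83.2 TPM in Dox and 133 and 136 TPM at 12 h, with 3 of 6 called higher at 12 h, 2 higher at 24 h, and 2 higher and 1 lower at 48 h. The part of these markers in the changes below was not tested. In bulk RNA, fewer cells of a type and less RNA per cell cannot be told apart.

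Summed over the 35 genes, lysosomal transcripts were higher from 6 h of auxin on and highest at 48 h. Their TPM summed to 2735 and 2740 in the Mock libraries and to 3099 and 3108 in the Dox libraries, a step before any auxin. The sum stayed between 3093 and 3206 through 1 h of auxin. It was 3634 and 3698 at 6 h and 3584 and 3696 at 12 h, and reached 4483 and 4501 at 24 h and 5116 and 5260 at 48 h. The rise from Dox to 48 h, 2084 TPM, came for 60.1% from 3 abundant genes, the saposin precursor Psap, the membrane glycoprotein Lamp1 and the protease Ctsd. A gene was called changed at an adjusted p under 0.05 in edgeR's quasi-likelihood test, with Benjamini-Hochberg adjustment over all genes tested, and a fold over 1.5, the thresholds the study used. At 24 h 15 genes were called higher and 3 lower, where 20.2% of all genes tested were called higher and 20.3% lower. At 48 h 16 were called higher and 2 lower, where the shares over all genes were 17.9% and 17.6%. These shares are the background for the group counts below. The 35 genes were chosen with earlier results of these data known, so an excess over these shares is a description and not a test. The median log2 fold change of the 35 was 0.46 at 24 h and 0.36 at 48 h, and that of all genes tested was -0.02 and 0.01.

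**Figure D1:**
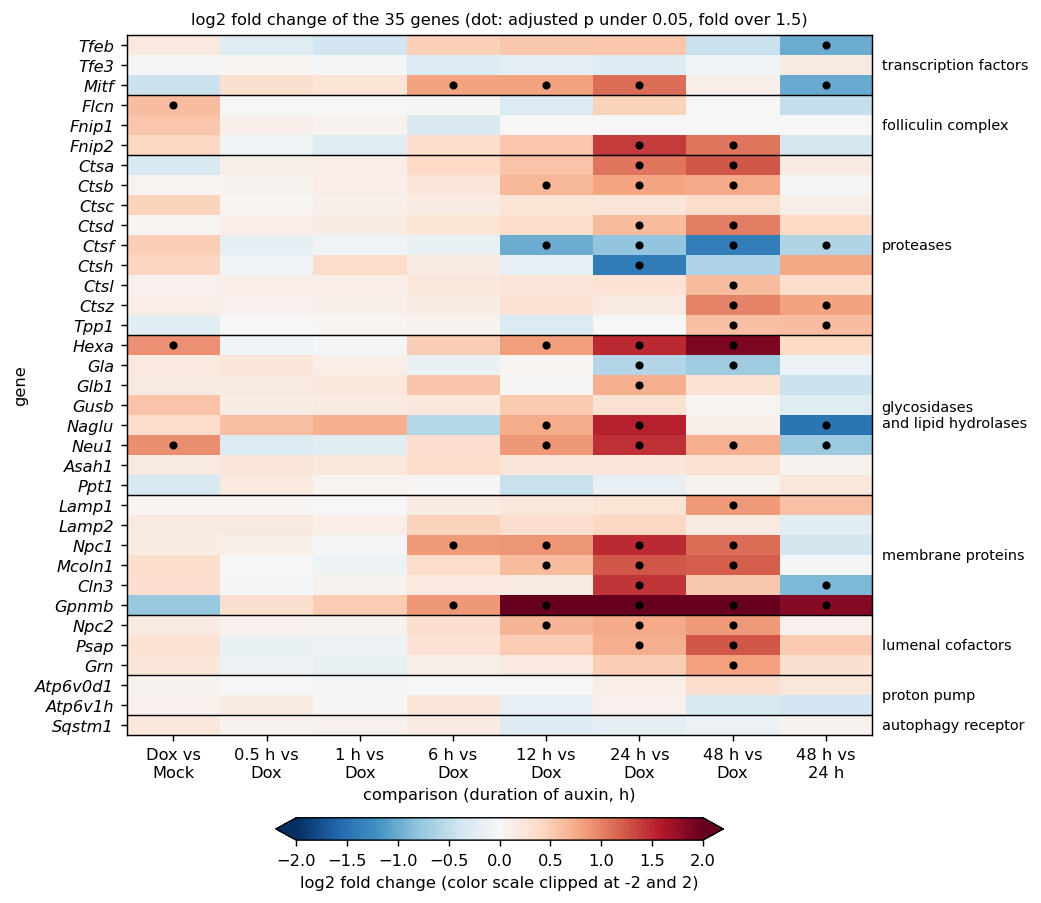
Log2 fold change of each of the 35 genes (rows, grouped by role) in the 8 comparisons (columns), with black dots on genes called at an adjusted p under 0.05 and a fold over 1.5. Colors are clipped at -2 and 2. The 0.5 h and 1 h columns hold no dot, the 24 h column holds 15 dots on rises and 3 on falls, and the Gpnmb row darkens to 48 h, where its value was 4.74.

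The wider lysosome and autophagy list stayed near the background. Of 97 further genes of the pathway 92 were tested, and 17 were called higher and 13 lower at 24 h, and 19 higher and 14 lower at 48 h, shares close to those over all genes. Their median log2 fold change was 0.13 at 24 h and 0.06 at 48 h. Within the list, 42.9% of the 21 lysosomal enzymes tested were called higher and 19% lower, at 24 h and at 48 h alike. The enzymes had a median log2 fold change of 0.51 at 24 h and 0.31 at 48 h. Of the 20 membrane and scaffold genes 30% were called higher at both times, and 0% and 15% lower. Of the 22 autophagy genes 4.55% were called higher at both times, and 13.6% and 9.09% lower. The difference between the 35 genes and the wider list, or any part of it, was not tested.

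**Figure D2:**
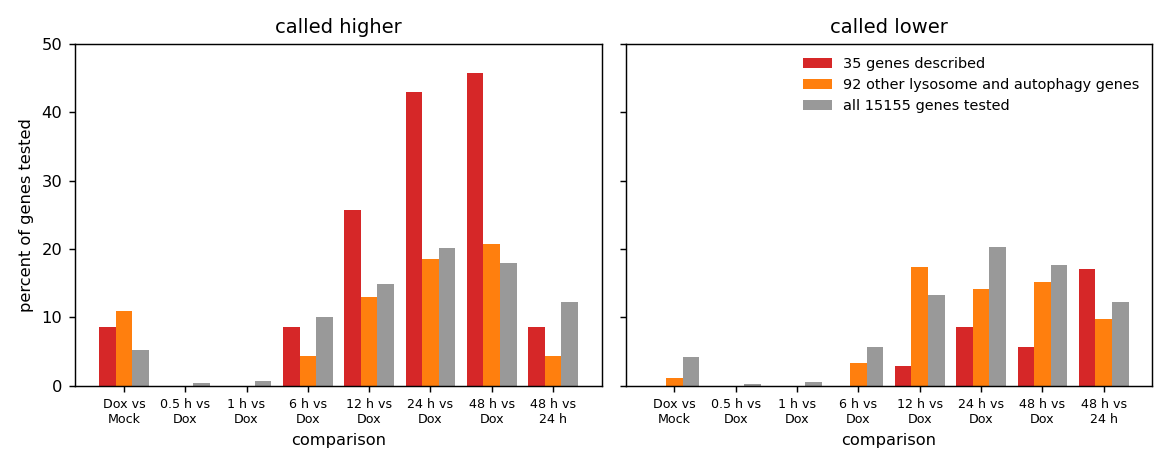
Percent of genes called higher (left) and lower (right) in each comparison, for the 35 genes described, the 92 other lysosome and autophagy genes tested, and all 15155 genes tested. The bars of the 35 genes stand above the other bars for genes called higher at 12, 24 and 48 h, at 25.7%, 42.9% and 45.7%.

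Of the transcription factors, Mitf moved with auxin and returned. Mitf, best known for its role in pigment cells, stood at 37.1 and 38.2 TPM in Mock and 29.0 and 28.4 TPM in Dox. It was at 35.7 and 34.9 TPM at 0.5 h and 31.1 and 36.35 TPM at 1 h. It reached 49.6 and 49.9 TPM at 6 h, 47.9 and 49.0 TPM at 12 h and 61.8 and 65.1 TPM at 24 h, and was back at 30.5 and 30.4 TPM at 48 h. The libraries at 6, 12 and 24 h all lay above those of the remaining conditions. Against Dox the log2 fold change was 0.80 ± 0.06 (SE) at 6 h (adjusted p = 3.6e-11), 0.80 ± 0.06 at 12 h (adjusted p = 1.6e-11) and 1.11 ± 0.05 at 24 h (adjusted p = 8.3e-15), by edgeR. At 48 h it was 0.10 ± 0.06 (adjusted p = 0.15). Smaller rises at 0.5 h (0.33, edgeR adjusted p = 0.00071) and 1 h (0.27, edgeR adjusted p = 0.0034) did not pass the fold threshold. Nor did the fall from Mock to Dox, -0.42 (edgeR adjusted p = 3.3e-06). Against Mock the 6 h and 12 h values were both 0.38 and were not called.

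Tfeb had a course of like shape at a lower level. It was at 10.1 and 9.28 TPM in Mock, 11.9 and 10.6 TPM in Dox, 8.65 and 10.2 TPM at 0.5 h, and 7.84 and 9.04 TPM at 1 h. It was at 15.7 TPM in both 6 h libraries, 15.5 and 16.2 TPM at 12 h, 19.1 and 14.7 TPM at 24 h, and 8.21 and 8.27 TPM at 48 h. The 24 h pair was the widest apart, and its log2 fold change against Dox, 0.55 ± 0.12 (edgeR adjusted p = 0.00019), did not pass the fold threshold, nor did 0.48 at 6 h, 0.53 at 12 h and -0.44 at 48 h. Without replicate 2 of 24 h, or without replicate 1 of Dox, the 24 h value was 0.75 or 0.63 and was called. Against Mock Tfeb was called higher at 6, 12 and 24 h. From 24 h to 48 h Tfeb fell by 0.99 on the log2 scale (SE 0.12, edgeR adjusted p = 3.2e-07).

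Tfe3 varied least of the 3. Its libraries ranged from 21.7 TPM at 12 h to 27.9 TPM at 0.5 h, with 26.5 and 26.8 TPM in Dox and 25.1 TPM in both 48 h libraries. No comparison called it, and its log2 fold changes lay between -0.28 and 0.18.

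In the folliculin complex, Flcn and Fnip2 were called at different steps, though both rose with Dox and both were highest at 24 h. Flcn, which encodes the GTPase-activating subunit, rose with Dox from 46.7 and 47.3 TPM in Mock to 72.9 and 74.6 TPM, a log2 fold change of 0.62 ± 0.05 (edgeR adjusted p = 9e-10). It was at 58.8 and 60.02 TPM at 12 h, 102 and 105 TPM at 24 h, and 72.2 and 73.3 TPM at 48 h. The 24 h pair stood above all other libraries, at a log2 fold change of 0.46 against Dox that did not pass the fold threshold. Against Mock Flcn was called higher at 0.5, 1, 6, 24 and 48 h.

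Fnip2, a folliculin partner, was at 18.4 and 18.1 TPM in Mock and 25.0 and 24.6 TPM in Dox. That Dox step, 0.41 ± 0.07 on the log2 scale (edgeR adjusted p = 1e-04), did not pass the fold threshold. Fnip2 was at 32.2 and 30.9 TPM at 6 h, and 34.0 and 36.2 TPM at 12 h. It was at 62.2 and 70.8 TPM at 24 h and at 49.3 and 53.4 TPM at 48 h. It rose by 1.39 ± 0.06 at 24 h (edgeR adjusted p = 1.8e-15) and 1.06 ± 0.06 at 48 h (edgeR adjusted p = 6e-13) on the log2 scale. Its paralog Fnip1 was at 25.9 and 27.1 TPM in Mock and between 31.2 and 43.8 TPM in all other libraries, and was called in no comparison. The Dox step of Fnip1 was 0.55 (edgeR adjusted p = 3.9e-08), under the fold threshold. Against Mock Fnip1 was called higher at 0.5 and 1 h.

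**Figure D3:**
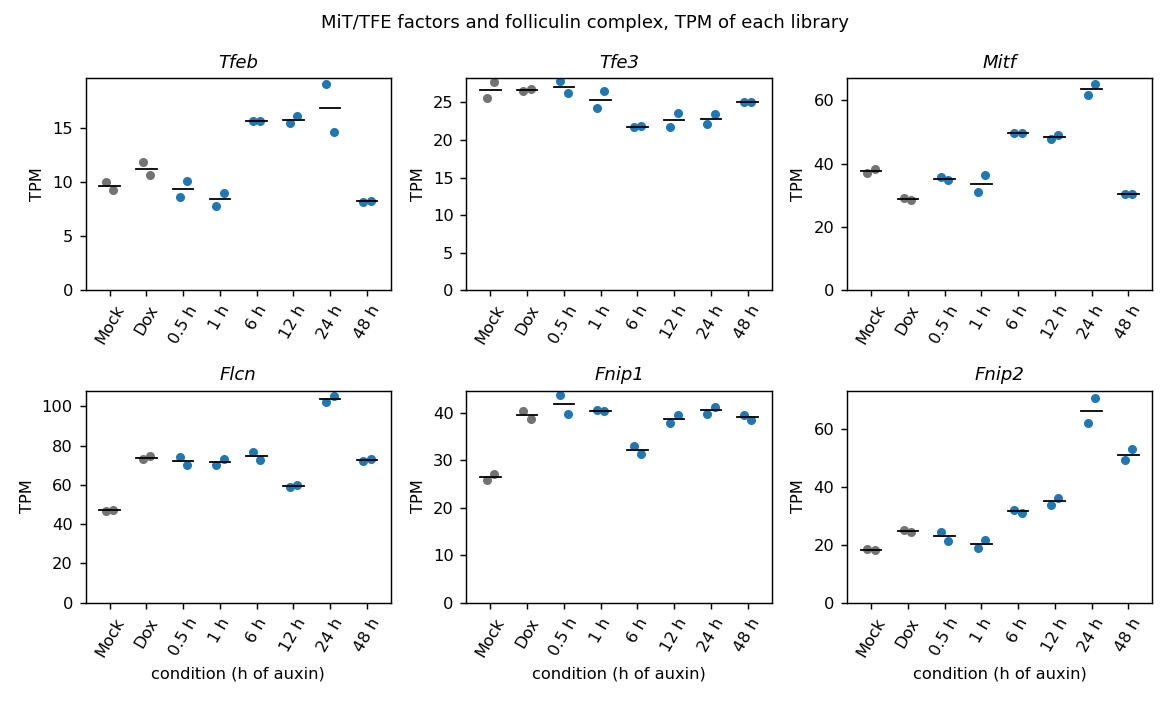
TPM of each library (dots) and the mean of each pair (black lines) for the 3 MiT/TFE factors and the 3 genes of the folliculin complex, with Mock and Dox in gray and auxin times in blue. Mitf climbs to 61.8 and 65.1 TPM at 24 h and is back at 30.5 and 30.4 TPM at 48 h, and Flcn steps up between Mock and Dox.

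Gpnmb showed the widest range of the 35, with a mean at 48 h 26.8 times that in Dox. It encodes a transmembrane glycoprotein of lysosomes and melanosomes, and is a known MITF target in pigment cells. The gene (ENSMUSG00000029816.10) lies on mouse chromosome 6, positions 49036546 to 49070929 of GRCm38, plus strand. It was at 0.558 and 0.822 TPM in Mock, 0.390 and 0.436 TPM in Dox, 0.570 and 0.440 TPM at 0.5 h, 0.645 and 0.497 TPM at 1 h, and 0.769 and 0.738 TPM at 6 h. From 12 h on both libraries stood clear of all earlier ones, at 2.25 and 1.91 TPM, then 2.98 and 3.43 TPM at 24 h, and 11.2 and 10.9 TPM at 48 h. These levels rest on 11 to 12 counts a library in Dox and 281 to 290 at 48 h.

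The log2 fold change of Gpnmb against Dox was 2.37 ± 0.27 at 12 h (adjusted p = 6.7e-08), 2.91 ± 0.25 at 24 h (adjusted p = 3.2e-10) and 4.74 ± 0.21 at 48 h (adjusted p = 2.7e-15), by edgeR. It was called at 6 h also, at 0.87 ± 0.33 (edgeR adjusted p = 0.04), but that call was lost when any of the 4 libraries was left out, at values from 0.79 to 0.95, by DESeq2 and limma, and against Mock (0.10). Between 24 h and 48 h Gpnmb rose by a further 1.82 ± 0.15 (edgeR adjusted p = 5e-10), while Mitf and Tfeb fell.

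**Figure D4:**
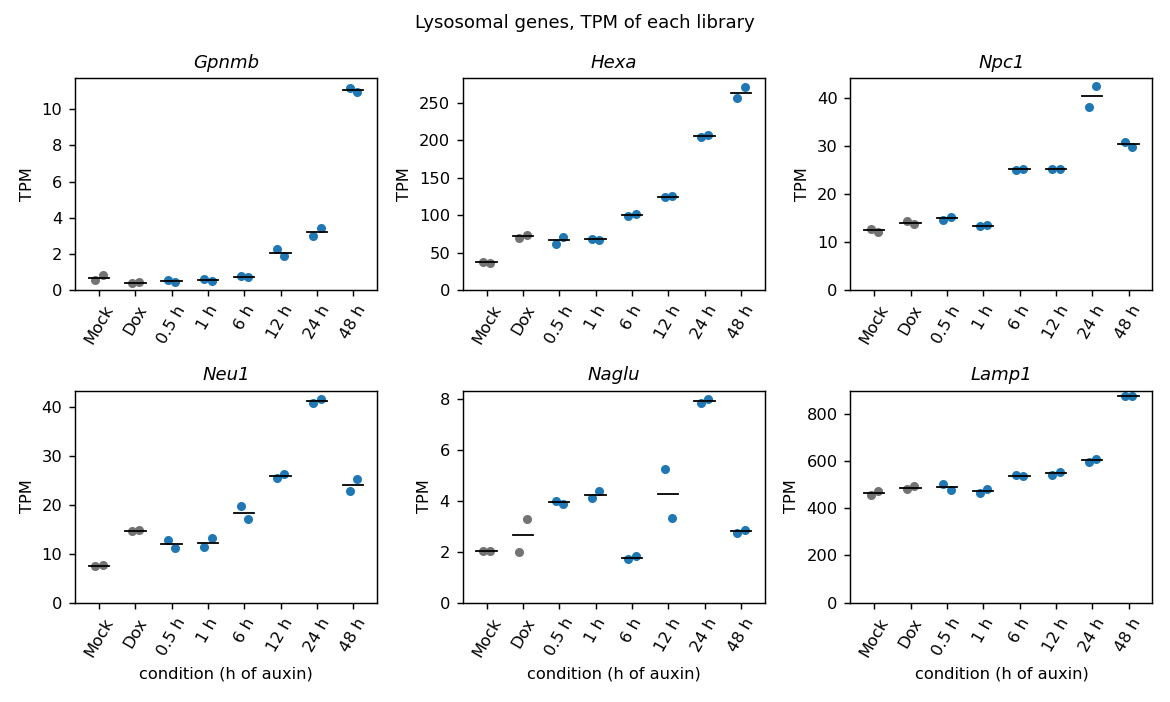
TPM of each library (dots) and the mean of each pair (black lines) for 6 lysosomal genes across the 8 conditions, with Mock and Dox in gray. Gpnmb and Lamp1 are highest at 48 h, Neu1 and Naglu are highest at 24 h, and Hexa climbs from 37.5 and 37.0 TPM in Mock to 256 and 271 TPM at 48 h.

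Of the 6 membrane proteins 4 were called higher at 24 h and 4 at 48 h, none was called lower, and their median log2 fold change was 1.34 and 0.99. Npc1, which moves cholesterol out of lysosomes, was among the earliest. It was at 14.3 and 13.8 TPM in Dox, at 25.1 and 25.2 TPM at 6 h, at 25.2 TPM in both 12 h libraries, at 38.2 and 42.6 TPM at 24 h, and at 31.0 and 29.8 TPM at 48 h. Its log2 fold changes against Dox were 0.85 ± 0.06, 0.89 ± 0.06, 1.49 ± 0.05 and 1.12 ± 0.06 at these times, all called, with edgeR adjusted p of 1.7e-11 or less. Npc1 and Gpnmb were the only genes of the 35 called higher at each of 6, 12, 24 and 48 h.

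Mcoln1, the lysosomal calcium channel, was at 13.6 and 14.2 TPM in Dox, 20.4 and 21.4 TPM at 12 h, 32.5 and 35.03 TPM at 24 h, and 31.7 and 32.5 TPM at 48 h, and was called at each of these times. Its 12 h value, 0.63, was 0.55 and not called by limma on log2(TPM + 1). Cln3, a membrane protein whose loss causes juvenile Batten disease, peaked at 24 h. It was at 7.13 and 9.65 TPM in Dox, 23.4 and 23.02 TPM at 24 h, and 12.1 and 12.0 TPM at 48 h, a log2 fold change of 1.44 ± 0.11 at 24 h (edgeR adjusted p = 1.9e-11). Lamp1, an abundant lysosomal membrane protein, was called at 48 h only, with 481 and 492 TPM in Dox, 597 and 607 TPM at 24 h and 876 and 873 TPM at 48 h. Its log2 fold change at 48 h was 0.86 ± 0.04 (edgeR adjusted p = 5.5e-16). Lamp2 stayed between 35.4 and 56.9 TPM and was called in no comparison. With Mock in place of Dox it was called higher at 6 and 24 h.

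Among the glycosidases and lipid hydrolases 4 of 8 were called higher at 24 h and 2 of 8 at 48 h. Hexa, the alpha subunit of beta-hexosaminidase A, which degrades gangliosides, had the second largest log2 fold change at 48 h, after Gpnmb. The gene (ENSMUSG00000025232.8) lies on chromosome 9, positions 59539540 to 59565109, plus strand. It was at 37.5 and 37.0 TPM in Mock and 70.0 and 73.7 TPM in Dox, a log2 fold change of 0.92 ± 0.08 before any auxin (edgeR adjusted p = 1.7e-09). It was at 98.9 and 102 TPM at 6 h, 124 and 125 TPM at 12 h, 204 and 207 TPM at 24 h and 256 and 271 TPM at 48 h. Against Dox the log2 fold change was 0.84 ± 0.06 at 12 h, 1.49 ± 0.06 at 24 h and 1.89 ± 0.06 at 48 h (edgeR adjusted p = 3.2e-18 at 48 h).

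Neu1, the lysosomal sialidase, shared the step at Dox but not the late climb. It was at 7.39 and 7.63 TPM in Mock and 14.5 and 14.8 TPM in Dox, a log2 fold change of 0.94 ± 0.12 (edgeR adjusted p = 1.4e-06). It was at 25.5 and 26.3 TPM at 12 h, 40.9 and 41.6 TPM at 24 h, and 22.8 and 25.2 TPM at 48 h. Its log2 fold change against Dox was 0.87 ± 0.10, 1.46 ± 0.09 and 0.72 ± 0.10, and all were called.

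Naglu, which removes N-acetylglucosamine from heparan sulfate, was a transcript of low level with a peak at 24 h. It was at 2.00 and 3.29 TPM in Dox, 1.71 and 1.81 TPM at 6 h, 5.24 and 3.31 TPM at 12 h, 7.83 and 8.001 TPM at 24 h, and 2.72 and 2.86 TPM at 48 h. The higher Dox library and the lower 12 h library nearly met, and the 12 h call (0.75 ± 0.26, edgeR adjusted p = 0.019) fell to 0.43 without replicate 1 of Dox and to 0.37 without replicate 1 of 12 h, and was lost by DESeq2 and by limma on log2(TPM + 1). The 24 h pair lay above all other libraries, at a log2 fold change of 1.55 ± 0.24 (edgeR adjusted p = 5.1e-06).

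Glb1, the lysosomal beta-galactosidase, was called at 24 h only, with 166 and 156 TPM in Dox and 272 and 270 TPM at 24 h. It was at 241 and 231 TPM at 6 h and 152 and 164 TPM at 12 h. Its 6 h value, 0.56 (edgeR adjusted p = 7.8e-10), was just under the fold threshold. That value was called against Mock, without replicate 1 of Dox and without replicate 2 of 6 h. Gla, alpha-galactosidase A, went the other way. It was at 23.2 and 20.4 TPM in Dox, 15.7 and 13.9 TPM at 24 h and 14.1 and 12.5 TPM at 48 h, and fell by 0.59 and 0.70 on the log2 scale (SE 0.11 and 0.12, edgeR adjusted p = 7.3e-05 and 9.5e-06). The 24 h call was lost in 8 alternatives, among them DESeq2 (-0.57), total-count scaling (-0.57), limma on log2(TPM + 1) (-0.53) and Mock as baseline (-0.39), and without replicate 1 of Dox (-0.50) or replicate 2 of 24 h (-0.48). The 48 h call was lost against Mock (-0.51). The acid ceramidase Asah1, the beta-glucuronidase Gusb and the thioesterase Ppt1 were called in no comparison, with log2 fold changes between -0.45 and 0.57. With Mock in place of Dox, Gusb was called higher at every auxin time, and Ppt1 lower at 12 h.

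Of the 9 proteases 3 were called higher at 24 h and 6 at 48 h, and 2 and 1 were called lower. The carboxypeptidase Ctsa, which protects Neu1 and Glb1 from degradation, was at 89.96 and 84.9 TPM in Dox, 188 and 187 TPM at 24 h and 197 and 212 TPM at 48 h. It rose by 1.07 ± 0.04 and 1.239 ± 0.04 on the log2 scale (edgeR adjusted p = 3.4e-16 and 4.3e-17). The aspartic protease Ctsd was at 294 and 289 TPM in Dox and 574 and 606 TPM at 48 h, a log2 fold change of 1.03 ± 0.05. Its 24 h value, 0.64, was 0.54 and not called without replicate 1 of 24 h. The cysteine protease Ctsb was called at 12, 24 and 48 h, at 0.66 to 0.78.

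Ctsz and the tripeptidyl peptidase Tpp1 were called at 48 h and at no earlier time. Ctsz was at 75.2 and 73.5 TPM in Dox, 88.9 and 83.1 TPM at 24 h and 141 and 152 TPM at 48 h, and rose by 0.99 ± 0.07 against Dox (edgeR adjusted p = 4.3e-11). Tpp1 was at 49.8 and 52.3 TPM in Dox, 53.2 and 50.7 TPM at 24 h and 74.2 and 79.8 TPM at 48 h. Its value against Dox, 0.60 ± 0.06, fell under the fold threshold in 7 alternatives, among them no filter on low counts (0.56), limma on log2(TPM + 1) (0.58), Mock as baseline (0.40), and leaving out replicate 1 of Dox (0.57) or replicate 2 of 48 h (0.55). Ctsl was called at 48 h (0.63, and 0.58 and not called with no filter on low counts), and the dipeptidyl peptidase Ctsc in no comparison. With Mock in place of Dox, Ctsc was called higher at 6, 12, 24 and 48 h.

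Ctsf and Ctsh fell. Ctsf was at 4.99 and 4.79 TPM in Dox, 2.57 and 2.16 TPM at 12 h, 3.10 and 2.71 TPM at 24 h and 2.26 and 1.46 TPM at 48 h, and the pairs from 12 h on lay below both Dox libraries. Its log2 fold changes were -0.996 ± 0.19, -0.78 ± 0.19 and -1.39 ± 0.20 (edgeR adjusted p = 9.5e-05, 0.0007 and 1.7e-06). Against Mock, where Ctsf was at 3.12 and 3.72 TPM, the 12 h and 24 h values were -0.51 and -0.30 and not called, and the 48 h value was -0.90. Ctsh was near the limit of detection, at 0.666 and 0.894 TPM in Dox and 0.426 and 0.175 TPM at 24 h, which rest on 13 to 17 and on 3 to 7 counts. Its call at 24 h (-1.39 ± 0.55, edgeR adjusted p = 0.029) was lost by DESeq2, by limma on log2(TPM + 1) and against Mock, and without replicate 2 of Dox (-1.17) or replicate 2 of 24 h (-0.87).

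The lumenal cofactors all rose by 48 h. Psap, whose product is cut into the saposins that help hydrolases reach lipids, was at 418 and 420 TPM in Dox, 708 and 707 TPM at 24 h and 962 and 1008 TPM at 48 h, the most abundant of the 35 at that time. It rose by 0.73 ± 0.04 and 1.25 ± 0.04 on the log2 scale (edgeR adjusted p = 2.2e-14 and 2e-18). Npc2, the soluble partner of Npc1, was called from 12 h on, with 128 and 127 TPM in Dox, 202 and 196 TPM at 12 h and 222 and 234 TPM at 48 h. Progranulin (Grn) was called at 48 h, at 103 and 107 TPM in Dox and 178 and 188 TPM at 48 h.

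The proton pump subunits and the autophagy receptor were called in no comparison. Atp6v0d1 was between 77.7 and 112 TPM and Atp6v1h between 23.1 and 35.4 TPM. Sqstm1, which links ubiquitinated cargo to autophagosomes, was at 334 and 333 TPM in Dox, 363 and 369 TPM at 6 h, 267 and 271 TPM at 12 h, and 297 and 311 TPM at 48 h. Its log2 fold changes lay between -0.27 and 0.21.

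By time, the number of genes called grew slowly after auxin. At the Dox step alone 3 of the 35, Neu1, Hexa and Flcn, were called higher, where 5.19% of all genes were called higher and 4.24% lower. At an edgeR adjusted p under 0.05 and any fold, 17 of the 35 were higher with Dox and 4 lower, where 2529 and 2719 of 15155 genes were. In Mock 22 of the 35 had their lowest mean TPM, and the share of all genes with their lowest mean in Mock was not counted. At 0.5 h and 1 h no gene of the 35 was called by edgeR, and DESeq2 called none either. Of all genes 0.455% and 0.666% were called higher and 0.277% and 0.541% lower by edgeR. An unadjusted edgeR p under 0.05 was reached by 14 and 15 of the 35, and by 2961 and 3582 of 15155 genes. By edgeR's adjusted p alone, 5 of the 35 were higher and 1 lower at 0.5 h, where 413 and 596 genes were. For 1 h these were 5 higher and 3 lower, where 573 and 981 genes were. At 6 h the 3 called were Gpnmb, Npc1 and Mitf, or 8.57% of the 35, against 10.1% of all genes called higher and 5.7% lower. That number of calls was near the background, but smaller changes leaned upward. At an edgeR adjusted p under 0.05 and any fold, 21 of the 35 were higher and 2 lower, where 3070 and 3417 of 15155 genes were. The median log2 fold change at 6 h was 0.21 for the 35 and -0.004 for all genes.

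At 12 h 9 were called higher and 1 lower, against 14.8% and 13.2% of all genes, but this split depended on the scaling. When libraries were scaled by the reads that map to the fly genome dm6, for which no source in these libraries was stated, the median of all genes at 12 h moved by -0.56 on the log2 scale. Then 1 gene, Gpnmb (1.81), was called higher and 7 lower (Tfe3, Flcn, Ctsf, Tpp1, Ppt1, Atp6v1h and Sqstm1), where 5.8% of all genes were called higher and 43.8% lower under this scaling. At 24 h and 48 h the same scaling moved the median by -0.21 and -0.19 and left 10 called higher and 3 lower, and 12 higher and 3 lower, where 14.7% and 28.6% of all genes were called at 24 h and 12.8% and 24.7% at 48 h. The calls lost were those of Psap, Ctsb, Ctsd, Npc2 and Glb1 at 24 h and of Neu1, Ctsb, Ctsl and Tpp1 at 48 h, and Tfeb was called lower at 48 h (-0.63). Gpnmb, Hexa and Npc1 were called higher under it at both times.

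Against 24 h, 3 genes were called higher at 48 h (8.57%) and 6 lower (17.1%), where 12.2% of all genes were higher and 12.3% lower, so the number of calls was near the background. Gpnmb, Ctsz and Tpp1 rose, while Naglu, Mitf, Tfeb, Cln3, Neu1 and Ctsf fell. In all 11 genes were called higher against Dox at both times, 4 at 24 h and not at 48 h (Cln3, Glb1, Mitf and Naglu), and 5 at 48 h and not at 24 h (Ctsl, Ctsz, Grn, Lamp1 and Tpp1).

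The starts of the 35 genes were searched for the E-box letters to which the MiT/TFE factors are known to bind. RefSeq promoter windows (build GRCm38.p6, 250 bases before to 50 after the start) were matched by symbol for 30 of the 35, of which 6 have more than 1 window, and all 38 windows were searched. The letters TCACGTGA, which read the same on both strands, stood in the windows of 6 of these 30 (20%, exact binomial interval 7.71% to 38.6%). They stood in the windows of 2.04% of the 10963 tested genes that have a window. The shorter CACGTG, which lies inside them, stood in 12 of 30 (40.0%) and in 11.7%. The same letters with a G before and a C after them stood in Cln3 alone (3.33%) and in 0.748%. A match of letters is a description and not a bound site.

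The stretches are shown to let the matches be compared, with the matched letters in capitals, 5′ to 3′ on the strand of the gene. Those of Ctsd, Mcoln1 and Cln3 hold the match 99, 46 and 122 bases before the start. That of Ctsa ends at the start, that of Atp6v0d1 ends where its match runs over the start, and those of Gla lie 228 and 195 bases before it. For Ctsa and Cln3 the match stands in the second window listed and the distance is from that start. Ctsa holds another match from 4 bases after this start, which is not shown.
Ctsa, chr2:164833749-164833772, plus strand: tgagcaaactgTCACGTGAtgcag
Ctsd, chr7:142387908-142387937, minus strand: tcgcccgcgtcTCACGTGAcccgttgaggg
Mcoln1, chr8:3500462-3500491, plus strand: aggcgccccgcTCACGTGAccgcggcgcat
Cln3, chr7:126583340-126583369, minus strand: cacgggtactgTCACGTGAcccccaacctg
Gla, first match, chrX:134601215-134601244, minus strand: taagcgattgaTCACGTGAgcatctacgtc
Gla, second match, chrX:134601182-134601211, minus strand: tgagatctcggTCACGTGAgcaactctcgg
Atp6v0d1, chr8:105566061-105566079, minus strand: ccctactgcggTCACGTGA

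Of the 6 genes with these letters Ctsa, Ctsd, Mcoln1 and Cln3 were called higher at 24 h, Gla was called lower, and Atp6v0d1 was not called. Of the 24 with a window and no such match 9 were called higher. Over all 224 tested genes with TCACGTGA, 14.7% were called higher and 16.1% lower at 24 h, and over the 10739 without it 20.9% and 20.3%. Gpnmb, Hexa, Neu1 and Psap had a window and no TCACGTGA in it.

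Lamp1, shown after its window was seen, held the short letters 4 times within 61 bases of its start, with each copy in capitals.
Lamp1, chr8:13159095-13159160, plus strand: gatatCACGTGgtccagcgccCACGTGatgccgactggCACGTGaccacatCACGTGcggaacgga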

How the data were processed

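Poly(A) RNA was sequenced from 16 libraries of 8 conditions, 2 each. Per the study's methods the authors used cutadapt 1.18 for trimming, STAR 2.7.3a for alignment to mm10, dropped duplicate reads and counted genes of a GENCODE annotation with RSEM 1.3.1. The deposited count table holds RSEM expected counts, which were rounded to whole numbers here, and the TPM table deposited by the authors holds their length-scaled levels. The authors' table of differential expression from DESeq2 1.24.0, which holds fold changes and p-values, was not used. Removing duplicates can lower the counts of abundant genes.

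Counts were scaled by TMM and filtered by filterByExpr, and 1 model of all 16 libraries was fitted in edgeR 4.0.16 (R 4.3.3) with no replicate block, with 8 residual degrees of freedom. Called genes had an adjusted p under 0.05 over the 15155 genes tested and a fold over 1.5. The study calls its duplicates technical, so the p-values rest on the spread within pairs of libraries, which may be technical, and errors are SE of the fit. On simulated data for 6 h against Dox over 15155 genes, 92 of 100 genes changed by a fold of 2 and 100 of 100 changed by a fold of 4 were recovered, with 1 false call among 14105.

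Alternatives were DESeq2 size factors, total counts, dm6 reads, DESeq2 1.42.0, edgeR on the 4 libraries compared, limma 3.58.1 on log2(TPM + 1) and log2(TPM + 0.1), no filter, a replicate block, Mock as baseline, and leaving out each library. The members and lists were chosen with earlier results of these data known. Values of single libraries, for some or all conditions, were given for the MiT/TFE factors, the folliculin complex, Gpnmb and Sqstm1. The same was done for the 3 called genes with the largest rise and the 3 with the largest fall in each comparison. Further genes were added after their values were seen, to show the course of a group. Gene positions are from GENCODE M21 (GRCm38). Promoter intervals cover counting error only.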

Additional observations from a re-analysis of the deposited data

Results flagged for a closer look

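The response at 48 h differed from that at 24 h for 9 of the 35 genes (8.57% higher and 17.1% lower, where 12.2% and 12.3% of all genes were called), by edgeR's direct test of the 48 h libraries against the 24 h libraries, which equals the difference of the 2 effects against the shared Dox libraries. On the log2 scale Gpnmb was higher at 48 h by 1.82, Ctsz by 0.81 and Tpp1 by 0.61. Naglu was at -1.46, Mitf at -1.01, Tfeb at -0.99, Cln3 at -0.90, Neu1 at -0.74 and Ctsf at -0.60. The TPM of the 2 libraries at 24 h did not overlap those at 48 h for any of the 9. The 9 were picked by a test on these same libraries, so this separation adds no support. The call of Tpp1 was lost by DESeq2 (0.58), by limma with either pseudocount (0.56 and 0.57), with no filter (0.58), and without replicate 2 of 24 h (0.53) or replicate 2 of 48 h (0.56), and that of Ctsf by DESeq2 (-0.63) and edgeR on 4 libraries (-0.59), neither past the adjusted p, by limma on log2(TPM + 1) (-0.46) and dm6 reads (-0.58), and without replicate 1 of 24 h (-0.51) or replicate 2 of 48 h (-0.32).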

How the results depend on the processing

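Every called direction was kept under each alternative that was run. Over all settings 3702 values kept their side of the threshold, 71 lost a call, 69 gained a call and 7 changed sign, all 7 on uncalled values with Mock in place of Dox: Neu1 (0.67 at 0.5 h and 0.70 at 1 h), Hexa (0.84 and 0.88) and Flcn (0.62 and 0.62, and 0.61 at 48 h). Scaling by dm6 reads gave 15 genes higher for Dox against Mock in place of 3, 1 in place of 0 at 1 h, and 1 higher and 7 lower at 12 h in place of 9 and 1. It moved the median of all genes by 0.39, 0.19 and -0.56 in these comparisons, and called 22.8% of all genes higher for Dox against Mock, 3.06% at 1 h, and 5.8% higher and 43.8% lower at 12 h. With Mock as the baseline 6 genes were higher at 0.5 h, 6 at 1 h and 12 at 6 h, and 0 were lower at 24 h and 1 at 48 h, where 7%, 7.38% and 14.7% of all genes were higher and 22.4% and 19.4% lower. Mock as baseline gained 32 calls and lost 9 over all auxin times. DESeq2 and limma on log2(TPM + 1) each called 1 gene lower at 24 h in place of 3.

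With each library left out in turn, the genes called higher numbered 3 to 4 for Dox against Mock, 0 to 0 at 0.5 h and at 1 h, 2 to 3 at 6 h, 9 to 10 at 12 h, 14 to 16 at 24 h, 15 to 17 at 48 h and 2 to 3 for 48 h against 24 h. Those called lower numbered 0 to 0 for the Dox step and at 0.5 h and 1 h, 0 to 1 at 6 h (1 without replicate 1 of Dox), 1 to 1 at 12 h, 1 to 3 at 24 h (1 without replicate 2 of 24 h), 2 to 2 at 48 h and 5 to 6 for 48 h against 24 h. A fit with replicate number as a block changed no call of the 35 genes, with 15 higher and 3 lower at 24 h. The numbers share no stated origin, and the deviations of same-numbered libraries from their condition means correlated at -0.08 to 0.06 over 28 pairs of conditions, with 0 above 0.1. Low depth limits Ctsh, Gpnmb before 12 h and Naglu. A promoter window of 250 bases before the start held TCACGTGA in 16.7% of the genes, in place of 20%.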

Other observations

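Among the further genes of the pathway, some lysosomal enzymes rose as strongly as the genes described above while others fell. Hgsnat, the membrane enzyme that acetylates heparan sulfate, was at 15.5 and 12.6 TPM in Dox, 64.5 and 65.4 TPM at 24 h and 35.6 and 36.5 TPM at 48 h, a log2 fold change of 2.18 ± 0.09 at 24 h. Idua, the iduronidase of the same pathway, was at 8.997 and 7.71 TPM in Dox and 37.9 and 38.6 TPM at 48 h, a log2 fold change of 2.21 ± 0.11. Against them, the lysosomal beta-mannosidase Manba was at 63.6 and 60.1 TPM in Mock, 33.6 and 30.3 TPM in Dox and 6.49 and 7.11 TPM at 48 h, a log2 fold change of -2.22 ± 0.08 against Dox. The acid lipase Lipa fell by 2.96 at 48 h, from 1.94 and 2.20 TPM to 0.229 and 0.289 TPM. In this list 9 of 21 enzymes tested were called higher (42.9%) and 4 lower (19%) at 24 h, and the same numbers at 48 h. Of all genes 20.2% were called higher and 20.3% lower at 24 h, and 17.9% and 17.6% at 48 h.

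Cd68, a lysosomal membrane glycoprotein also used as a macrophage marker, was at 32.5 and 28.2 TPM in Dox, 82.3 and 76.4 TPM at 6 h and 143 and 127 TPM at 24 h (log2 fold change 2.12 ± 0.10), while Adgre1, Lyz2 and Ptprc were listed at 0 in all libraries. Rraga, a Rag GTPase that brings mTORC1 to lysosomes, was at 150 and 147 TPM in Dox, 43.8 and 48.7 TPM at 24 h and 105 and 101 TPM at 48 h, a log2 fold change of -1.72 ± 0.07 at 24 h. Rragb, its paralog, was at 15.0 and 11.5 TPM in Dox and 2.98 and 2.72 TPM at 48 h (-2.21 ± 0.19). Of the genes that sort enzymes to lysosomes, the sortilin gene Sort1 fell by 2.47 at 48 h and the mannose 6-phosphate receptor gene Igf2r rose by 1.10. Of 22 autophagy genes 1 was called higher (4.55%) and 3 lower (13.6%) at 24 h, where 20.2% and 20.3% of all genes were. Among them were Map1lc3a (-1.15 ± 0.12) and the tethering subunit Vps11 (1.31 ± 0.06). Of 15 other proton pump subunits 1 was called higher, Tcirg1 (0.81 ± 0.10), and 1 lower, Atp6v0c (-0.63 ± 0.05), at 24 h, or 6.67% each way against the same shares. Each change named here against Dox passed both thresholds of edgeR's test.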
